A study of Saccharomyces cerevisiae with 24 samples.

Results

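The 9 genes described here encode the protein-conducting channels of the yeast endoplasmic reticulum (ER) and the receptor that brings ribosomes to them: SEC61, SSS1, SSH1, SEC62, SEC63, SEC66, SEC72 and the genes of the alpha and beta subunits of the signal recognition particle receptor, which are given by their systematic names YDR292C (alpha) and YKL154W (beta). They were chosen by what their proteins do, by a rule that uses no measured value, though earlier results of these data were known. They are 9 of the 6033 nuclear open reading frames listed. Total mRNA and ribosome footprints (FP, the mRNA stretches that ribosomes shield from nuclease) were sequenced from 12 cultures of haploid Saccharomyces cerevisiae that carried 1 or more whole chromosomes in 2 copies, or none. Levels are in RPKM, which scales a gene's reads to the length of its coding sequence and to the mapped reads of the library. Footprint density is the FP level over the mRNA level of the same culture.

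All strains were of the S288C background (ura3 his3 trp1 leu2) and were grown in rich YPD medium at 25 °C to log phase, with cycloheximide added at harvest. In run 1, 1 culture each was measured of the euploid WT (RLY2626, MATa), of D2 (NVY1, chromosome II in 2 copies) and of D1/2 (NVY2, I and II). In run 2, WT was measured again in 1 culture, as were D1/2/8 (NVY3, which carries a missense mutation in CAK1) and D13 (KLY196, MATα, missense mutations in CAK1 and SEC24). Run 2 also held 2 cultures each of D1/2/8/11 (KLY193, CAK1 restored, TRP1 cassette), of D1/8 (KLY194, derived from NVY3 and listed with the same repair) and of D13 (KLY195), a MATα strain with both genes restored and TRP1 and LEU2 cassettes. D2 and D1/2 derive from parents that also had chromosome XII in 2 copies. The other chromosome II disomes differ from them in run, so karyotype and run cannot be fully told apart.

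Most proteins that enter the ER pass through a channel formed by Sec61, which spans the membrane many times, and the small Sss1. Ribosomes that carry a nascent signal sequence are guided there by the signal recognition particle (SRP), whose receptor consists of an alpha subunit and a membrane-anchored beta subunit. Ssh1 forms a second channel that works with ribosomes during translation, whereas Sec62, Sec63, Sec66 (Sec71) and Sec72 join Sec61 to bring in finished proteins after translation.

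The members differ in how hydrophobic their proteins are, and several results below are read against this property. With windows of 19 residues on the Kyte-Doolittle scale, SSH1 (490 residues) had 7 predicted hydrophobic segments, SEC61 (480) had 4, SEC63 (663) had 3 and SEC62 (274) had 2. SSS1 (80), SEC66 (206), YKL154W (244) and YDR292C (621) had 1 each, and that of YDR292C reached an average of only 1.63 against the minimum of 1.6. SEC72 (193) had none, its highest window averaging 1.08. The 57 bases that code for the most hydrophobic window are shown for 6 members to make this difference visible, from the R64 reference genome of RefSeq, 5′ to 3′ on the coding strand. Capitals mark codons with T as the middle base, which code for phenylalanine, leucine, isoleucine, methionine or valine. SEC61 had 15 such codons of 19, SSH1 and SEC66 13, SEC63 12, YKL154W 11 and SEC72 10.
SEC61 (chrXII:876678-876734, minus strand): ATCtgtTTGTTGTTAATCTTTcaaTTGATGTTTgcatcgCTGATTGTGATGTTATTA
SSH1 (chrII:769474-769530, minus strand): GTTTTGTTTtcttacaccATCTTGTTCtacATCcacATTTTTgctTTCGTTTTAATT
SEC63 (chrXV:806304-806360, minus strand): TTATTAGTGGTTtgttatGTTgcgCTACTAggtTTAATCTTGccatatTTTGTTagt
SEC66 (chrII:578451-578507, plus strand): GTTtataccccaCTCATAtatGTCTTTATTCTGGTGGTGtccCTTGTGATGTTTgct
YKL154W (chrXI:161613-161669, plus strand): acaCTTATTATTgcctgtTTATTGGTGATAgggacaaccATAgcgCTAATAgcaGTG
SEC72 (chrXII:719972-720028, minus strand): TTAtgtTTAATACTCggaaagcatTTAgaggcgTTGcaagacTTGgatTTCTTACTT

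The window of SEC72 holds nearly as many T codons as that of YKL154W but has codons for lysine, histidine, glutamate and aspartate between them. The whole genes lie, on the same build, on chromosome XII at 875736-877178 (SEC61, YLR378C) and 719789-720370 (SEC72, YLR292C) and on IV at 616928-617170 (SSS1, YDR086C) and 1043146-1045011 (YDR292C). SEC66 (YBR171W, 578364-578984) and SSH1 (YBR283C, 768943-770415) lie on II, YKL154W (161601-162335) on XI, SEC62 (YPL094C, 369839-370663) on XVI and SEC63 (YOR254C, 805032-807023) on XV. SEC66 and SSH1 were therefore present in 2 copies in the 4 disomes of II (D1/2/8/11, D1/2/8, D1/2 and D2), and YKL154W in D1/2/8/11.

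The reads recovered from the RPKM values came to between 1532275 and 5075056 per library in run 1 and between 8477148 and 39633134 in run 2, and a member's value rested on 61 to 14162 of them. Chromosomes listed in 2 copies had a median log2 change to WT of 0.56 to 1.12. Chromosome XI stood at 0.22 (mRNA) and 0.23 (FP) in D1/2/8, where it is listed in 1 copy, and XII at 0.14 (mRNA) and 0.15 (FP) in D2. In both D1/8 cultures TRP1, the cassette gene of this strain's description, was at 0 or 0.26 RPKM, whereas it stood at 358 and 375 RPKM in the mRNA of D1/2/8/11. The FP library labelled D13 (KLY195) replicate 1 had 0.76 RPKM for TRP1 against 105 in replicate 2, and 66.5 against 321 for LEU2, although the mRNA libraries of both cultures held 303 and 301 for TRP1. The limma tests, the counts past a fold and the class medians of D13 (KLY195) footprints are therefore given with and without that library. CAK1, listed as restored in D1/8 too, stood in mRNA at 45.3 and 37.6 RPKM there and at 36.6 and 37.5 in WT, against 186 and 183 in D1/2/8/11. Nothing in the labels says that replicates came from separate isolates, and p-values measure the spread between these cultures.

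In WT the members were well expressed. SEC61 stood above 91.0% to 91.9% of all genes in mRNA and 91.6% to 93.0% in FP over the 2 WT cultures. YDR292C and YKL154W were the lowest members, above 62.4% to 71.8% of genes in mRNA. SSS1 had the highest footprint density, 5.91 in run 1 and 2.27 in run 2 against medians of 0.49 and 0.67 over all genes, and its FP level differed between the WT cultures (1779 and 748 RPKM) more than that of any other member.

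**Figure D1:**
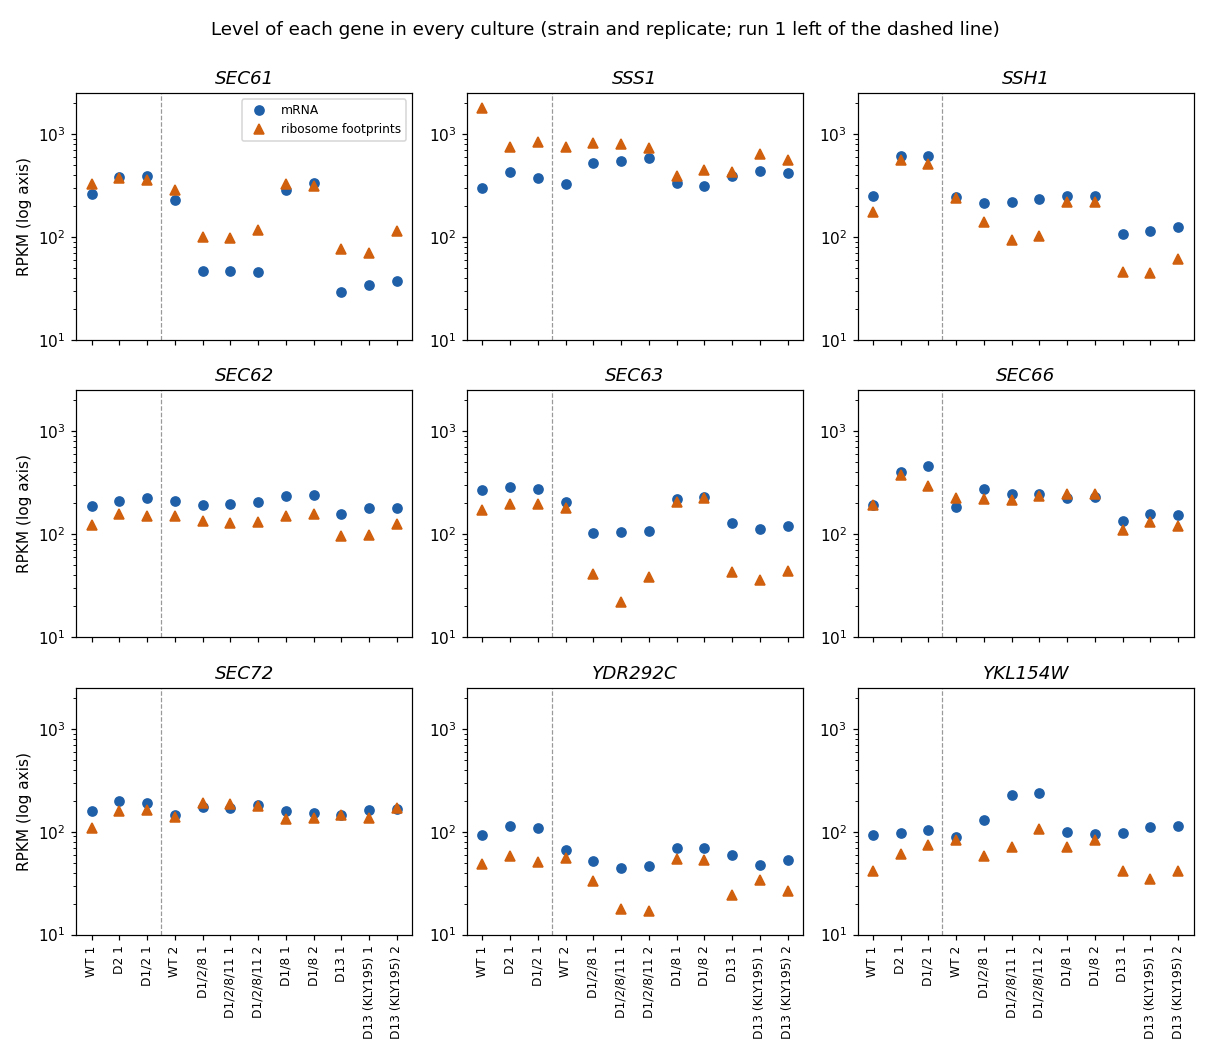
RPKM on a log axis (vertical) of the 9 genes in the mRNA (circles) and ribosome footprints (triangles) of the 12 cultures (horizontal), 1 panel per gene, with run 1 left of the dashed line. SEC61 and SEC63 form 2 levels, a high one in WT, D2, D1/2 and D1/8 and a low one in both D13 strains, D1/2/8/11 and D1/2/8, while SEC62 and SEC72 stay within a narrow band.

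SEC61 encodes the pore of the main channel, and its mRNA had the largest change to WT of any member. This mRNA stood at 259 and 230 RPKM in the WT cultures of runs 1 and 2, 378 for D2, 389 for D1/2, and 283 and 332 for D1/8. It stood at 46.4 for D1/2/8, 46.6 and 45.8 for D1/2/8/11, 29.0 for D13, and 34.3 and 37.2 for D13 (KLY195). The 2 sets of cultures did not overlap, and the highest of the low set lay far under the lowest of the high set. Against WT of the same run, with each culture shifted so that the median gene of its non-duplicated chromosomes is at 0, the log2 change was -2.31 for D1/2/8, -2.31 ± 0.02 (SD, n = 2) for D1/2/8/11, -2.98 for D13 and -2.69 ± 0.08 (SD, n = 2) for D13 (KLY195). Only 30 of 5573 genes had a lower value than SEC61 in D1/2/8/11, and 22 of 5566 in D13. The change in D1/8 was 0.41 ± 0.16 (SD, n = 2).

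Footprints on SEC61 differed in the same cultures but by less. They stood at 323 and 286 RPKM in WT, 370 for D2, 353 for D1/2, and 326 and 314 for D1/8, against 99.3 for D1/2/8, 97.0 and 118 for D1/2/8/11, 76.3 for D13, and 70.0 and 113 for D13 (KLY195). D1/2/8/11 had a log2 change of -1.42 ± 0.20 and D13 (KLY195) one of -1.68 ± 0.49 (SD, n = 2 each), the wider spread of the latter coming with the doubted library, which gave -2.03 against -1.34. Footprint density was therefore higher, by 0.89 ± 0.21 and 1.00 ± 0.41 (log2, SD, n = 2), and SEC61 was the only member with a positive density change in all of D1/2/8, D1/2/8/11, D13 and D13 (KLY195). For SEC72 this rested on the doubted library. Its density change in D13 (KLY195) was -0.19 with that library and 0.11 in replicate 2, with a mean of -0.04. In the strains named before D13 (KLY195) it was positive, at 0.22, 0.14 and 0.09.

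SSS1, the small partner of SEC61 in the channel, did not share the change of SEC61. Its mRNA stood at 301 and 329 RPKM in WT, 427 for D2, 373 for D1/2, 523 for D1/2/8, 548 and 585 for D1/2/8/11, 335 and 314 for D1/8, 393 for D13, and 435 and 419 for D13 (KLY195). Its footprints stood at 1779 and 748 RPKM in WT, 752 for D2, 834 for D1/2, 816 for D1/2/8, 804 and 722 for D1/2/8/11, 391 and 445 for D1/8, 427 for D13, and 638 and 563 for D13 (KLY195). mRNA was thus highest in D1/2/8/11 with no overlap with any other strain, while FP was low in D1/8 and D13. The log2 FP change of D2 (-1.33) and D1/2 (-1.16) rests on the WT culture of run 1, and against the average of the WT libraries of both runs it was -0.56 and -0.39. That reference also lowered the change of D1/2/8/11 to -0.78 and of D1/8 to -1.63.

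SSH1 encodes the pore of the second channel and lies on chromosome II. Its mRNA was 252 and 242 RPKM in WT, 606 for D2, 616 for D1/2, 212 for D1/2/8, 218 and 232 for D1/2/8/11, 247 and 252 for D1/8, 107 for D13, and 113 and 125 for D13 (KLY195). Its footprints were 175 and 240 RPKM in WT, 558 for D2, 512 for D1/2, 138 for D1/2/8, 92.1 and 103 for D1/2/8/11, 216 for each D1/8 culture, 45.9 for D13, and 44.3 and 61.4 for D13 (KLY195). With 2 copies in each, the run 1 disomes were above WT and the run 2 disomes below it. The log2 FP change was 1.58 for D2 and 1.48 for D1/2, against -0.80 for D1/2/8 and -1.30 ± 0.11 (SD, n = 2) for D1/2/8/11. With 1 copy it was -2.39 for D13 and -2.20 ± 0.33 (SD, n = 2) for D13 (KLY195), where only 2.5% of genes were lower (-1.97 and 4.73% from replicate 2 alone), and -0.15 ± 0.004 (SD, n = 2) for D1/8.

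**Figure D2:**
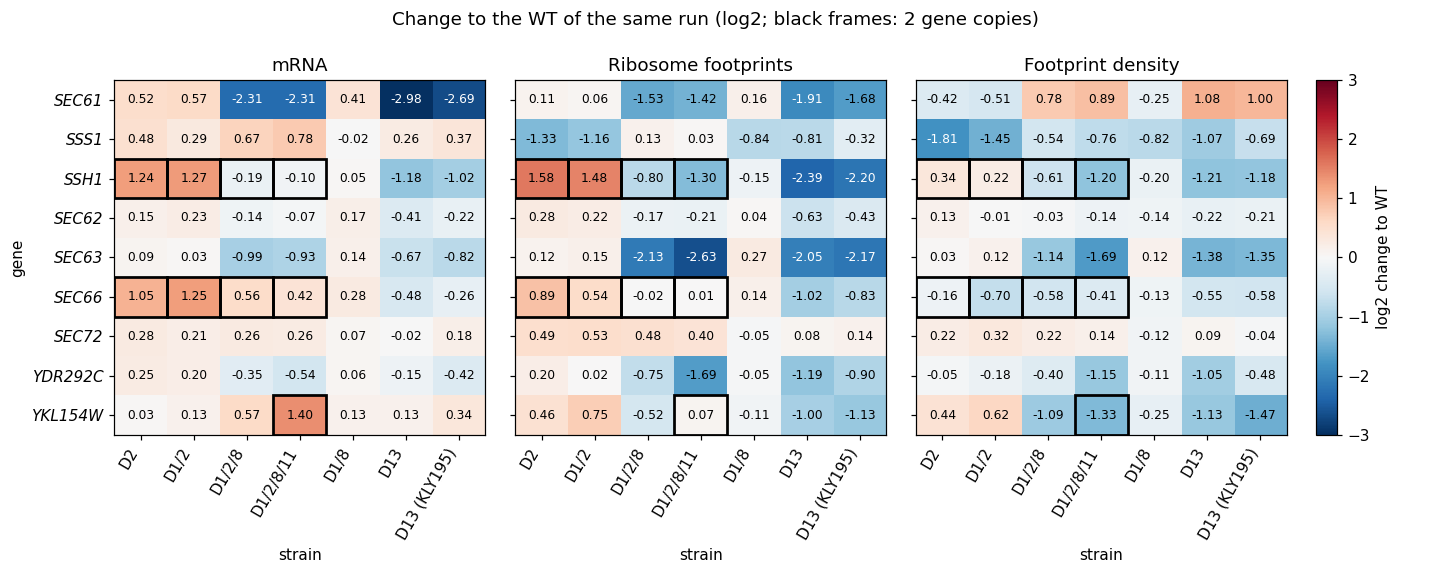
Log2 change to the WT of the same run for each gene (vertical) in each strain (horizontal; mean of 2 cultures for D13 (KLY195), D1/8 and D1/2/8/11, 1 culture elsewhere), in mRNA, footprints and footprint density, with frames around genes in 2 copies. SEC61 mRNA runs from 0.57 to -2.98 and SEC63 footprints from 0.27 to -2.63, while SEC72 footprints lie between -0.05 and 0.53.

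Of the subunits that serve post-translational import, SEC63, whose protein recruits the lumenal Hsp70 Kar2 through a J domain, had the largest FP change. Its mRNA was 268 and 205 RPKM in WT, 290 for D2, 278 for D1/2, 222 and 230 for D1/8, and 103 to 129 in the 6 cultures of both D13 strains, D1/2/8/11 and D1/2/8. Its footprints were 171 and 179 RPKM in WT, 197 for D2, 198 for D1/2, and 207 and 224 for D1/8, against 40.9 for D1/2/8, 21.8 and 38.5 for D1/2/8/11, 43.2 for D13, and 36.3 and 43.5 for D13 (KLY195). In both fractions these 6 cultures lay below all others. The log2 FP change in D1/2/8/11 was -2.63 ± 0.58 (SD, n = 2), a 6.18-fold lower level, and only 87 of 5040 genes were lower. Unlike SEC61, SEC63 had a lower footprint density there, by 1.69 ± 0.55 on the log2 scale (SD, n = 2).

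SEC62, which binds Sec63 in the same complex, moved little. Its mRNA ranged from 158 RPKM for D13 to 239 in a D1/8 culture and its footprints from 96.9 for D13 to 159 for D2, and its largest log2 change in size was -0.63, in the footprints of D13. SEC72, the peripheral subunit on the cytosolic face that helps bind substrates, was the steadiest in mRNA, from 145 RPKM in D13 to 197 in D2. Its footprints were 108 and 138 RPKM in WT, 161 for D2, 162 for D1/2, 192 for D1/2/8, 184 and 179 for D1/2/8/11, 132 and 135 for D1/8, 145 for D13, and 135 and 170 for D13 (KLY195). Single cultures overlapped, since D13 (KLY195) replicate 2 (170) lay above D2. Against the WT of their run, however, SEC72 was the only member with FP levels above WT in all 4 disomes of chromosome II, at log2 changes of 0.49, 0.53, 0.48 and 0.40 ± 0.03 (SD, n = 2). Its own gene lies on XII, whose median gene in FP stood at 0.15 for D2, 0.06 for D1/2, 0.05 for D1/2/8, and 0.08 and 0.07 for D1/2/8/11. The part of these medians in the SEC72 changes was not tested.

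SEC66 holds Sec72 at the membrane and lies on chromosome II. Its mRNA was 191 and 186 RPKM in WT, 402 for D2, 461 for D1/2, 274 for D1/2/8, 249 and 248 for D1/2/8/11, 223 and 228 for D1/8, 134 for D13, and 158 and 153 for D13 (KLY195). Its footprints were 194 and 223 RPKM in WT, 381 for D2, 296 for D1/2, 220 for D1/2/8, 216 and 234 for D1/2/8/11, 246 and 247 for D1/8, 110 for D13, and 131 and 120 for D13 (KLY195). In mRNA every disome of II was above every other culture, whereas in FP the run 2 disomes were level with WT and below D1/8.

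Set beside the chromosome that carries them, SEC66 and SSH1 were below its median gene in the run 2 disomes. In the run 1 disomes SSH1 was above that median in both fractions. SEC66 was above it there in mRNA, whereas in FP it was near it in D2 and below it in D1/2 (-0.34). The median gene of chromosome II had a log2 mRNA change of 0.88 for D2, 0.92 for D1/2, 0.89 for D1/2/8 and 0.95 for D1/2/8/11. SSH1 was above that median by 0.37 and 0.35 in D2 and D1/2, whereas the difference was -1.08 for D1/2/8, with 31 of 383 genes of the chromosome lower, and -1.06 for D1/2/8/11, with 28 of 384. In FP, SSH1 differed from the chromosome's median by 0.72, 0.59, -1.65 and -2.26 in these 4 strains and SEC66 by 0.02, -0.34, -0.88 and -0.95. SSH1 was also below the median of the then single chromosome II for D13 (-2.40) and D13 (KLY195) (-2.21), so that its FP level for D1/2/8/11 stood above that for D13 (KLY195) with no overlap between cultures.

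**Figure D3:**
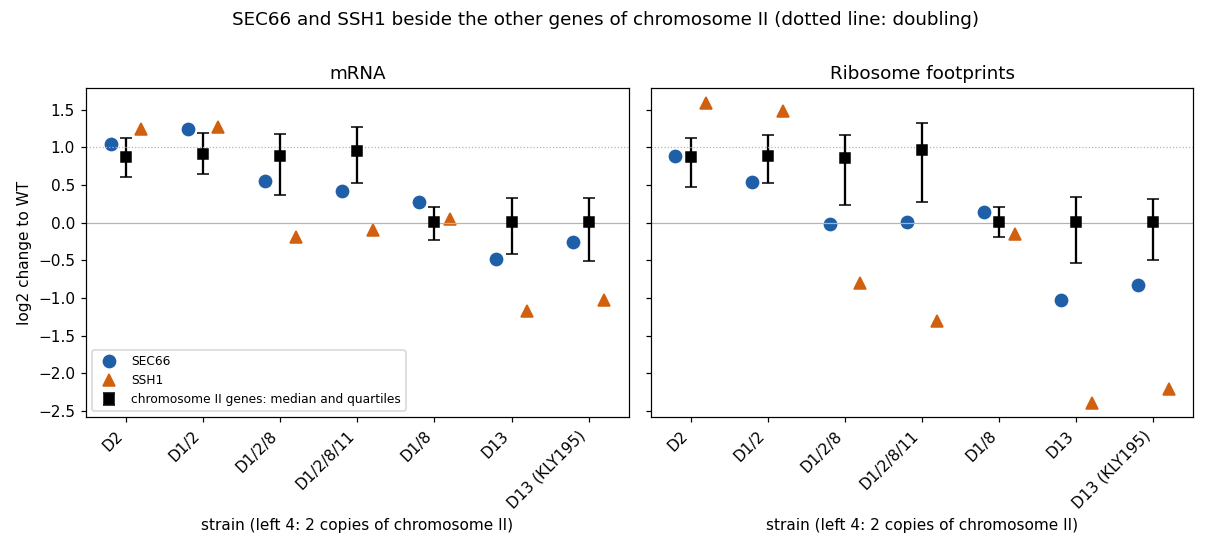
Log2 change to WT (vertical) of SEC66 (circles) and SSH1 (triangles) in each strain (horizontal) beside the median and quartiles of all genes of chromosome II (squares with bars), in mRNA and footprints. In D2 SEC66 lies near the chromosome's median and SSH1 above it, and both lie below it in D1/2/8/11, where SSH1 differs from it by -2.26 in footprints.

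The SRP receptor subunits differed from each other. YDR292C encodes the GTPase that meets SRP, and its mRNA was 93.7 and 66.6 RPKM in WT, 113 for D2, 109 for D1/2, 69.9 and 69.4 for D1/8, and 44.7 to 60.0 in the 6 other cultures. Its footprints were 48.2 and 55.8 RPKM in WT, 58.7 for D2, 51.3 for D1/2, 54.7 and 53.5 for D1/8, 33.2 for D1/2/8, 17.7 and 17.0 for D1/2/8/11, 24.4 for D13, and 34.0 and 26.3 for D13 (KLY195). As with SEC63, those 6 cultures lay below all others in both fractions. YKL154W, the membrane anchor of the receptor, had an mRNA level of 93.3 and 88.7 RPKM in WT, 96.6 for D2, 104 for D1/2, 131 for D1/2/8, 229 and 240 for D1/2/8/11, 100.0 and 94.8 for D1/8, 97.1 for D13, and 110 and 114 for D13 (KLY195). Only D1/2/8/11 carries 2 copies, and its 2 cultures lay above all others, at a log2 change of 1.40 ± 0.05 (SD, n = 2) beside 1.04 for the median gene of XI.

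YKL154W footprints did not follow. They were 41.9 and 82.6 RPKM in WT, 61.4 for D2, 73.9 for D1/2, 57.6 for D1/2/8, 71.2 and 106 for D1/2/8/11, 70.3 and 82.9 for D1/8, 41.2 for D13, and 34.4 and 41.4 for D13 (KLY195). The log2 FP change in D1/2/8/11 was 0.07 ± 0.41 (SD, n = 2), against 1.01 for the median gene of chromosome XI, and 49 of 285 genes of XI were lower. The run 1 WT value rests on 61 reads, so that the FP changes of D2 (0.46) and D1/2 (0.75) are the least precise here. In D1/2/8 the mRNA change of 0.57 stood beside a median of 0.22 for XI, and the part of that median in it was not tested.

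Counted over the members, at least 1.5-fold lower FP levels than WT were found for 1 gene in D2, against 14.7% of all genes, and for 1 in D1/2, against 14.4%. SSS1 was that gene in both, and against the average of both WT libraries it was not past the threshold in either. That reference instead put SSS1 past the threshold in D1/2/8 (log2 change -0.65), D1/2/8/11 (-0.78) and D13 (KLY195) (-1.09). The counts that follow use the WT of the same run and leave it out there. The count was 4 of 9 for D1/2/8 (22.7% of all genes), 4 for D1/2/8/11 (22.7%), 1 for D1/8 (6.45%, again SSS1), 8 for D13 (21.3%) and 6 for D13 (KLY195) (21.4%). For D13 (KLY195) it was also 6 from replicate 2 alone (23.2%). SEC61, SEC63, SSH1 and YDR292C were the 4 in each of D1/2/8/11 and D1/2/8. In D13 every member but SEC72 passed the threshold.

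These differences lay beside a gradient over all genes. In the FP of D1/2/8/11, genes of non-duplicated chromosomes had a median log2 change of 0.16 when their proteins had no hydrophobic segment (2765 genes), -0.25 with 1 segment (657), -1.28 with 2 to 6 (417) and -2.04 with at least 7 (149). In D13 (KLY195) the medians were 0.13, -0.19, -1.19 and -1.73 (0.14, -0.21, -1.16 and -1.77 from replicate 2 alone), and in D1/8 they were 0.01, -0.003, -0.03 and -0.06. In mRNA the D1/2/8/11 medians were 0.11, -0.12, -0.45 and -0.82. Both fractions were taken from lysates cleared by centrifugation, away from the pellet and the lipid layer. The part of this gradient, and of the clearing step, in the members' values was not tested.

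Against their classes the members spread widely. SEC63, with 3 segments, had a FP change of -2.63 in D1/2/8/11 against the class median of -1.28, whereas SEC62, with 2, had -0.21 ± 0.04 (SD, n = 2). SEC61, with 4 predicted segments, was near its class in FP (-1.42) and far below it in mRNA (-2.31 against -0.45). This count may be too low, since Sec61 spans the membrane many times and SSH1, the other pore, had 7. Genes with at least 7 had medians of -2.04 in FP and -0.82 in mRNA. Beside them SEC61 was above in FP and still below in mRNA. YDR292C, whose segment barely passed the minimum, was at -1.69 against -0.25 for genes with 1 segment. SEC72 and the genes without a segment were on the same side of 0, at 0.40 and 0.16.

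**Figure D4:**
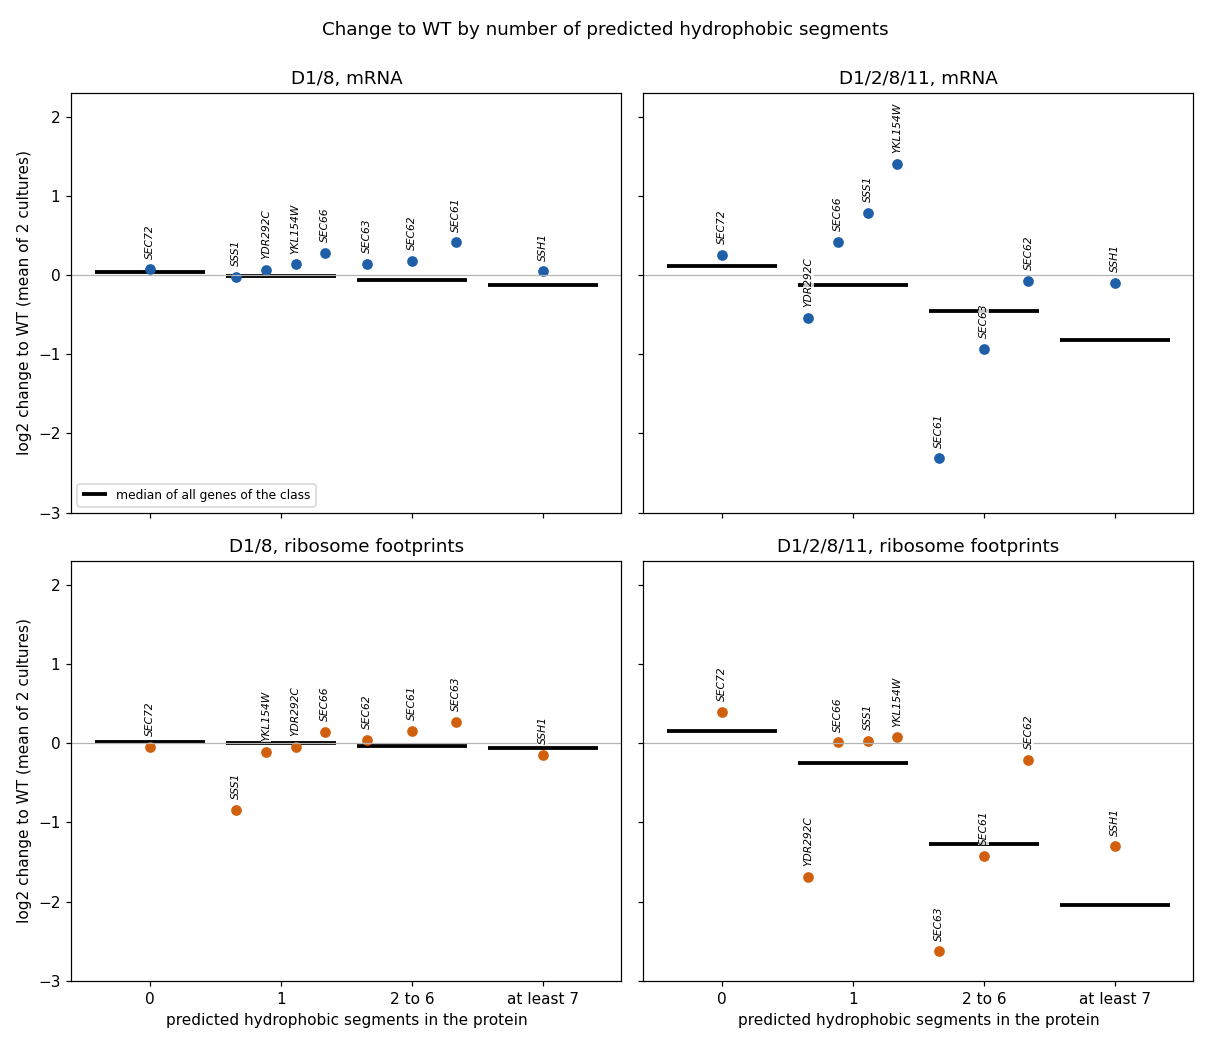
Log2 change to WT (vertical; mean of 2 cultures) of the members (labelled points) by the number of predicted hydrophobic segments in the protein (horizontal), with the median of all genes of each class on non-duplicated chromosomes (bars), for D1/8 and D1/2/8/11 in mRNA and footprints. The class medians in D1/8 footprints stay between -0.06 and 0.01, and in D1/2/8/11 they run from 0.16 to -2.04. SEC66, SSH1 and YKL154W have 2 copies in D1/2/8/11.

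D1/2/8/11 was compared with D1/8, the related strain without the second copies of II and XI, by limma on log2(RPKM + 0.5) over the 9 run 2 cultures, with Benjamini-Hochberg adjustment over all genes tested and a threshold of 0.05. These strains also differed in TRP1 and CAK1, as given above, and such differences cannot be told apart from the copies of II and XI. In mRNA, 3 of 9 members rose (40.7% of all 5470 genes did) and 5 fell (34.8%), shares that leave little to read from the counts. SEC61 fell by 2.75 on the log2 scale (SE 0.07, adjusted p = 1.405e-09), a 6.71-fold lower level. SEC63 fell by 1.11 (SE 0.05), YDR292C by 0.63 (SE 0.06), SEC62 by 0.28 (SE 0.05) and SSH1 by 0.18 (SE 0.06, adjusted p = 0.014). YKL154W rose by 1.23 (SE 0.05), SSS1 by 0.77 (SE 0.06) and SEC72 by 0.15 (SE 0.05, adjusted p = 0.024). SEC66 had a difference of 0.11 (SE 0.05, adjusted p = 0.069), and passed as higher without centring (0.14, adjusted p = 0.023). The SEC72 call was lost when libraries were centred on genes without a hydrophobic segment (0.06, adjusted p = 0.32), without D1/2/8/11 replicate 2 (adjusted p = 0.18) or without D1/8 replicate 2 (adjusted p = 0.102). The SSH1 call was lost without D1/2/8/11 replicate 1 (adjusted p = 0.094) or D1/8 replicate 2 (0.051).

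In FP, 2 of 9 members rose in D1/2/8/11 against D1/8 (35.6% of 5036 genes) and 4 fell (19.2%). SEC63 fell by 2.71 (SE 0.26, adjusted p = 0.00042), YDR292C by 1.45 (SE 0.14, adjusted p = 0.00046), SEC61 by 1.41 (SE 0.24, adjusted p = 0.0034) and SSH1 by 0.98 (SE 0.17, adjusted p = 0.0044). SSS1 rose by 1.03 (SE 0.14, adjusted p = 0.0017) and SEC72 by 0.61 (SE 0.14, adjusted p = 0.012). SEC62 (-0.08, SE 0.14), SEC66 (0.03, SE 0.11) and YKL154W (0.35, SE 0.22) did not pass. The median of all genes stood at 0.26 on this scale, and at -0.04 after centring on genes without a segment. Relative to the former median SSS1 was at 0.78 and SEC72 at 0.36. With the latter centring SEC72 was at 0.32 (adjusted p = 0.11) and the 5 other calls held. The SEC72 call was also lost with any of the 4 cultures left out (adjusted p from 0.059 to 0.091), at differences of 0.59 to 0.64.

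In footprint density, SEC61 rose, by 1.34 (SE 0.24, adjusted p = 0.0092), the only 1 of 9 (20.0% of 5035 genes rose). SEC63 (-1.60, SE 0.25), YKL154W (-0.88, SE 0.22), YDR292C (-0.81, SE 0.18) and SSH1 (-0.80, SE 0.16) fell, 4 of 9 against 13.5%. SEC72 (0.46, SE 0.16, adjusted p = 0.065) did not pass. It passed as higher with only both strains in the fit (adjusted p = 0.014) or with fractions not paired by culture (adjusted p = 0.035). The fit of only both strains leaves out the doubted D13 (KLY195) library. It called 3436 genes in FP and 2480 in density, against 2760 and 1691. No density call of a member held without D1/8 replicate 1 or without D1/8 replicate 2. SEC61 then stood at 1.46 and 1.21, SEC63 at -1.65 and -1.55, SSH1 at -0.80 and -0.79 and YDR292C at -0.82 and -0.81. Their sizes moved little while the calls were lost, and YKL154W moved more (-1.05 and -0.70). Without D1/2/8/11 replicate 1 the calls of SSH1 (-0.75), YDR292C (-0.87) and YKL154W (-0.62) were lost. Without D1/2/8/11 replicate 2 those of SEC61 (1.18), SSH1 (-0.84) and YDR292C (-0.76) were lost.

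D13 (KLY195) was set against the same D1/8 cultures, and here no member differs in copy number. The strains do differ in chromosomes I, VIII and XIII, in TRP1 and in CAK1 mRNA (276 RPKM in each D13 (KLY195) culture, 45.3 and 37.6 in D1/8). The mating-type gene MF(ALPHA)1 stood in mRNA at 1575 and 1548 RPKM, against 0.69 and 0.61 in D1/8. These differences cannot be told apart. In mRNA, 2 members rose (38.7% of all genes) and 6 fell (38.4%). SEC61 fell by 3.09 (SE 0.07, adjusted p = 2.118e-10), an 8.53-fold lower level, SSH1 by 1.08 (SE 0.06), SEC63 by 0.97 (SE 0.05), SEC66 by 0.55 (SE 0.05), YDR292C by 0.49 (SE 0.06) and SEC62 by 0.41 (SE 0.05). SSS1 rose by 0.39 (SE 0.06) and YKL154W by 0.19 (SE 0.05), the latter call being lost with centring on genes without a segment (0.09, adjusted p = 0.14) or without D13 (KLY195) replicate 2 (adjusted p = 0.055). SEC72 had a difference of 0.10 (SE 0.05, adjusted p = 0.12).

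In FP, 1 member rose in D13 (KLY195) (31.6% of all genes) and 6 fell (20.6%). SEC63 fell by 2.22 (SE 0.26), SSH1 by 1.84 (SE 0.17), SEC61 by 1.63 (SE 0.24), YKL154W by 0.80 (SE 0.22), SEC66 by 0.77 (SE 0.11) and YDR292C by 0.64 (SE 0.14), with adjusted p from 0.00047 to 0.021. SSS1 rose by 0.73 (SE 0.14, adjusted p = 0.0071), and by 0.51 relative to the median of all genes (0.22). SEC72 (0.39, SE 0.14, adjusted p = 0.06) and SEC62 (-0.26, SE 0.14, adjusted p = 0.16) did not pass. SEC62 passed as lower without centring (-0.47, adjusted p = 0.035), with centring on genes without a segment (-0.54, adjusted p = 0.023) and without D13 (KLY195) replicate 2 (-0.44, adjusted p = 0.009). Without the doubted D13 (KLY195) replicate 1, SEC72 rose as well (0.56, adjusted p = 0.0035) and YKL154W no longer passed (-0.66, adjusted p = 0.06). Without a D1/8 culture YKL154W and YDR292C no longer passed in either case, nor did SSS1 without replicate 1 (0.62, adjusted p = 0.084). In density SEC61 rose by 1.46 (SE 0.24; 22.7% of genes rose), and SEC63 (-1.25), YKL154W (-0.99) and SSH1 (-0.76) fell (12.9%). Without D13 (KLY195) replicate 1 these 4 members and SEC72 (0.45, adjusted p = 0.034) were called, and without D1/8 replicate 1 or replicate 2 there were 1 and 0.

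To see what the disomes of chromosome II shared, the 4 strains with II in 2 copies were compared with the 3 without (D1/8, D13, D13 (KLY195)) by an exact two-sided permutation test over the 35 splits of strains, whose smallest p is 0.029. The strains are not independent, since D13 (KLY195) is D13 with CAK1 and SEC24 restored and the strains of a run share a WT culture. Both run 1 strains are disomes of II, so run and group are partly confounded. In mRNA, 2 of 9 members were higher in every disome than in every other strain, against 9.66% of 5062 genes, and 0 were lower, against 5.02%. These were SEC66 (mean log2 change 0.82 against -0.15) and SEC72 (0.25 against 0.08), each with an exact p = 0.029 and an adjusted p = 0.31 over all genes. SEC66 lies on chromosome II, so its copy number differs between the groups by the grouping itself. In FP only SEC72 separated the groups (0.47 against 0.06, exact p = 0.029, adjusted p = 0.28), 1 of 9 higher against 12% and 0 lower against 5.96% of genes. In density it was again SEC72 (0.22 against -0.02), 1 higher against 3.0% and 0 lower against 3.27%, with an exact p = 0.029 and an adjusted p = 0.77. None of these passed the correction. With run 2 strains only, the smallest p is 0.1. These groups could not overlap there, since some of the same disomes are set against the same 3 strains. Of all genes, 1898 (mRNA), 2014 (FP) and 1051 (density) did not overlap in this setting. The exact p was then 0.1 for SEC72 in FP and 0.2 for SEC72 in mRNA and density and SEC66 in mRNA. The groups for SEC72 in density overlapped without D1/2/8/11 replicate 1 (exact p = 0.086). SEC72 in density also had an exact p = 0.086 against the average of both WT libraries. When the shift was taken over genes without a segment, the exact p was 0.057 for SEC72 in density and for SEC66 in mRNA. Against the average of both WT libraries, SSS1 also separated the groups in FP (0.84 higher in the disomes, exact p = 0.029). SSH1, which like SEC66 has the extra copy, had a larger mean difference (1.27 in mRNA and 1.82 in FP) but overlapped, with an exact p = 0.17 in each.

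The levels of partner subunits shifted against each other. SSS1 over SEC61 in mRNA was 1.16 and 1.43 in WT, 1.13 for D2, 0.96 for D1/2, and 1.19 and 0.95 for D1/8, against 11.3 for D1/2/8, 11.8 and 12.8 for D1/2/8/11, 13.5 for D13, and 12.7 and 11.3 for D13 (KLY195). In FP the same ratio ran from 4.97 to 9.11 in those 6 cultures and from 1.20 to 5.50 in the others, and it overlapped through the WT culture of run 1. YKL154W over YDR292C in mRNA was 5.12 and 5.11 in the D1/2/8/11 cultures and 0.85 to 2.52 in all others. In FP it was 4.02 and 6.24 against 0.87 to 1.74.

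SEC63 over SEC62 in FP was 1.19 to 1.43 in WT, D2, D1/2 and D1/8 and 0.17 to 0.45 in the other 6 cultures, without overlap. SEC66 over SEC72 in mRNA ran from 1.37 to 2.45 in the disomes of II and from 1.19 to 1.51 in WT and D1/8, and was under 1 in both D13 strains (0.91 to 0.96). SSH1 over SEC61, the relation of the pores of both channels, was 0.97 and 1.05 in the mRNA of WT, 0.88 and 0.76 for D1/8, 1.58 for D1/2 and slightly above that for D2. It was 4.56 to 5.06 in the 3 cultures of D1/2/8/11 and D1/2/8 and 3.30 to 3.68 in the 3 cultures of both D13 strains. In FP it was 0.87 to 1.39 in the former 3 and 0.54 to 0.63 in the latter, against 0.54 and 0.84 in WT.

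**Figure D5:**
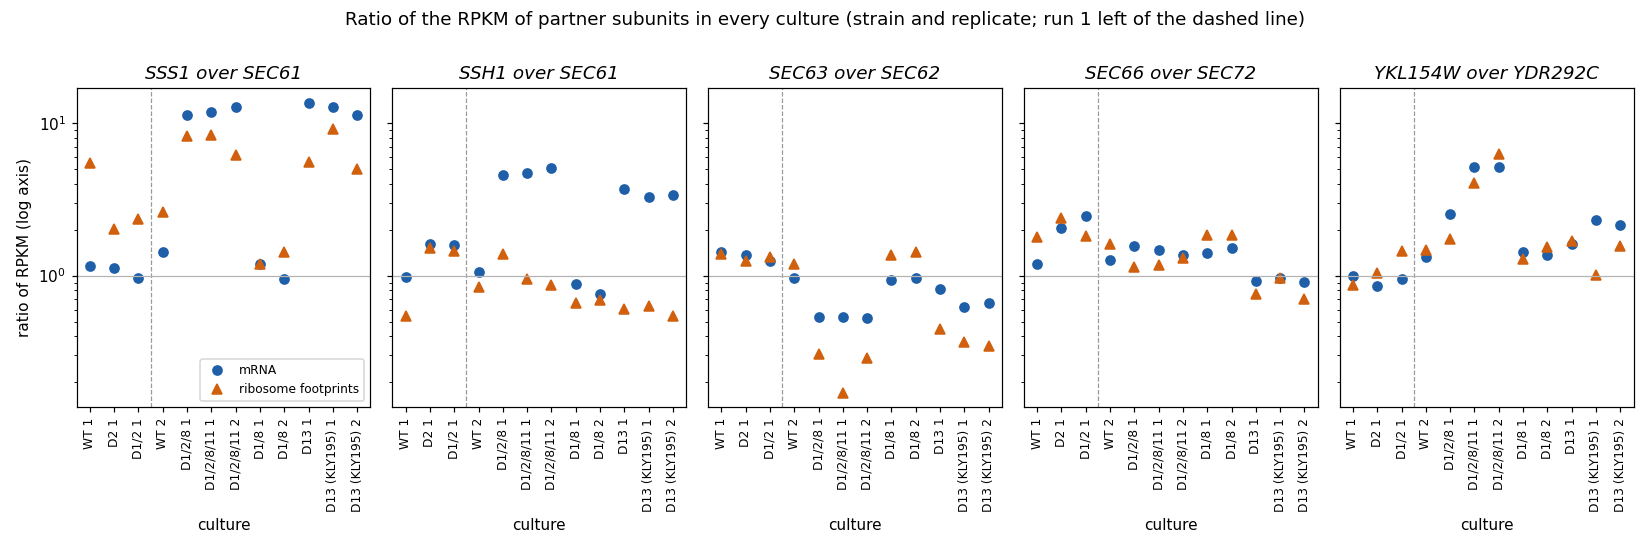
Ratio of the RPKM values (vertical, log axis) of 5 pairs of partner subunits in each culture (horizontal), in mRNA (circles) and footprints (triangles), with run 1 left of the dashed line. SSS1 over SEC61 in mRNA is 0.95 to 1.43 in WT, D2, D1/2 and D1/8 and 11.3 to 13.5 in the other cultures, and YKL154W over YDR292C is highest in D1/2/8/11.

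Of 30 other genes of ER targeting and import, 27 were in the files, and SBH1, SBH2 and SPC1 were not analysed here. In D1/2/8/11 against D1/8, 13 of the 27 rose and 9 fell in mRNA (40.7% and 34.8% of all genes), and 8 rose and 7 fell in FP (35.6% and 19.2%). All 6 measured subunits of SRP, which the receptor binds, rose in mRNA (median 0.42, against 0.05 over all genes), and 3 of them rose in FP. With libraries centred on genes without a segment 5 of 6 passed in mRNA and 2 of 6 in FP, where 1 subunit was below 0. Against the same D1/8 cultures, D13 (KLY195) also had 6 of 6 higher in mRNA, where 38.7% of all genes rose. SEC65, 1 of these 6, lies on XIII, which D13 (KLY195) carries in 2 copies. In FP 4 of 6 rose there (31.6% of all genes), and 2 of 6 with centring on genes without a segment. In D1/2/8/11 against D1/8, SRP21, on chromosome XI, had the largest rise, of 1.77 in mRNA and 1.59 in FP. All 3 genes of the lumenal Hsp70 system, which pulls chains through the channel that SEC63 serves, fell in FP: KAR2 by 2.01, LHS1, on XI, by 1.32 and SIL1 by 0.98. KAR2 also fell by 1.81 in mRNA.

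Of the 6 genes of the GET route for tail-anchored proteins, 2 rose and 3 fell in mRNA, and 4 rose and 1 fell in FP, where 1 of 6 rose after centring on genes without a segment. Of the 6 measured genes of the ER membrane complex 3 rose and 2 fell in mRNA, and 1 rose and 1 fell in FP. EMC1 fell by 1.43 in mRNA and 2.38 in FP. GET1, a membrane receptor for tail-anchored proteins, fell by 0.90 and 1.64 and its partner GET2 by 0.66 in mRNA, with -0.06 in FP. Of the signal peptidase subunits SEC11 fell by 0.87 in mRNA and SPC3 by 1.10 in FP. EMC3 on XI fell by 0.21 in mRNA although it has 2 copies in D1/2/8/11, with -0.27 in FP. PHO88, on chromosome II like SSH1 and SEC66, had a log2 FP change to WT of 1.25 for D2, 1.21 for D1/2, -0.14 for D1/2/8 and 0.03 ± 0.06 (SD, n = 2) for D1/2/8/11. On XIII, SEC65 was 1.14 and SPC2 1.21 above WT in the mRNA of D13, which carries that chromosome in 2 copies, beside 0.96 for the median gene of XIII.

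Among 4601 genes with at least 10 RPKM in every mRNA library, those most like SEC61 over the 10 aneuploid cultures were PDI1 (Pearson r = 0.999), SPA2 (0.997) and STE24 (0.997), as a description over cultures that share their WT libraries. PDI1 encodes the disulfide isomerase of the ER lumen and STE24 a protease of the ER membrane. Their ranges were narrower than that of SEC61, PDI1 from -1.86 to 0.75, STE24 from -1.80 to 0.51 and SPA2, a polarity factor, from -0.61 to 0.32. Most like SEC72 were SEC53 (0.919), UFD1 (0.916) and POL30 (0.908).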

How the data were processed

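Total mRNA and ribosome footprints of 12 cultures were sequenced in 2 runs after clearing of the lysates, and the authors deposited RPKM per open reading frame for 24 libraries, with Bowtie and cutadapt named in the submitters' processing notes and no versions given there. RPKM values were whole multiples of 1 read per gene within 0.05 reads for 92.3% to 99.1% of values of up to 50 reads, which gave the depth of each library. Intervals were not computed, and replicate spread is given instead. Of the 248 interrupted reading frames, 247 were listed at 0. No member is interrupted.

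Changes to WT are log2 ratios to the WT of the same run, shifted so that the median over non-duplicated chromosomes is 0. For tests, limma 3.58.1 in R 4.3.3 (lmFit, eBayes with trend) was run on log2(RPKM + 0.5) for genes averaging at least 1 RPKM in run 2, each library centred on its median over chromosomes duplicated in no strain. A fold change on this scale understates the change of low genes. Strains were compared by exact permutation. Both were tested on simulated data. Alternatives were other pseudocounts, filters, centrings, reference libraries and sets of strains, the replicate number as a block, and each culture left out in turn. The strain comparison without D1/8 and the footprint changes of D13 (KLY195) from replicate 2 alone were chosen after seeing the data. Hydrophobic segments were predicted from the R64 reference (5620 reading frames matched; 413 had no match).

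The members and gene lists were chosen with earlier results of these data known. All members are named. Related genes are named when among the 6 largest calls of a fraction in D1/2/8/11 against D1/8, or when on a chromosome duplicated in a study strain, and SIL1 and GET2 in FP were added after their values were seen. Genes most like SEC61 and SEC72 are the 3 with the highest correlation.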

Additional observations from a re-analysis of the deposited data

Results flagged for a closer look

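SEC61, SEC62, SEC63, SSH1 and YDR292C stood above WT in D2 and D1/2, both of run 1, and below it in D1/2/8 and both D1/2/8/11 cultures, of run 2, although all are disomes of chromosome II. The mean log2 change of run 1 minus that of run 2 was 2.86 (SEC61), 0.28 (SEC62), 1.01 (SEC63), 1.39 (SSH1) and 0.70 (YDR292C) in mRNA. In footprints it was 1.54 (SEC61), 0.45 (SEC62), 2.59 (SEC63), 2.67 (SSH1) and 1.48 (YDR292C). In footprint density SEC61 was below WT in the run 1 disomes and above it in those of run 2 (-1.32), while SEC63 (1.58), SSH1 (1.28) and YKL154W (1.77) were above it in run 1 and below it in run 2. These differences were not tested, since karyotype, run and WT library change together. D1/8, of run 2, was above WT like the run 1 disomes for SEC61, SEC62 and SEC63 in mRNA and FP. For SSH1 and YDR292C it was above WT in mRNA (0.05 and 0.06) and below it in FP (-0.15 and -0.05). In density it was on the side of run 1 for SEC61 (-0.25) and SEC63 (0.12). It was on that of run 2 for SSH1 (-0.20) and YKL154W (-0.25).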

How the results depend on the processing

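Over the limma comparisons of single members, 669 of 720 values under alternatives kept their side of the threshold, 41 lost the call (38 of them with 1 culture left out) and 10 gained it. No value called in the main fit or in the alternative changed direction. Values called in neither could do so, such as SEC66 FP in D1/2/8/11 against D1/8, which ran from -0.26 to 0.08. With 1 culture left out, the genes called in D1/2/8/11 against D1/8 ranged from 3789 to 3900 in mRNA, 1432 to 1979 in FP (2760 with all) and 0 to 756 in density (1691 with all), the 0 of limma standing beside 1548 genes at an unadjusted p under 0.05. For D13 (KLY195) they ranged from 3850 to 4015 in mRNA, 1262 to 3086 in FP (2631 with all) and 359 to 2290 in density (1793 with all), the lowest FP and density values coming without a D1/8 culture. Of the calls in D1/2/8/11 against D1/8, 64.9% were higher in FP and 59.7% in density, against 52.7% and 36.2% without centring and 40.3% and 34.9% when centred on genes without a segment. For D13 (KLY195) these were 60.5% and 63.8%, against 41.3% and 39.0% and 34.3% and 43.6%. Genes whose strains did not overlap numbered 743 (mRNA), 859 (FP) and 299 (density), and 1898, 2014 and 1051 with run 2 strains only, or 2255, 2035 and 1356 without D1/8. A gene that separates all strains also separates fewer of them, so the latter counts could not be lower. The cause of their size was not tested further. Replicate numbers did not pair the cultures (correlations of deviations from -0.08 to 0.21). With the replicate block 4173, 2725 and 1738 genes were called in D1/2/8/11 and 4279, 2585 and 1805 in D13 (KLY195), and of the members' calls only SEC66 mRNA changed (adjusted p = 0.04976). Of 378 changes to WT under no shift or the mean of both WT libraries, 82 moved by more than the replicate spread and none past the fold threshold reversed. The thinnest member value rests on 61 reads.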
